A study of Homo sapiens with 3 samples.

Results

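The 10 genes described here belong to or answer to the NF-kB pathway: the chemokines CXCL5 and CXCL1, the subunits RELA, NFKB1, NFKB2 and RELB, the inhibitors NFKBIA and TNFAIP3, the ubiquitin ligase BIRC3 and the TNF family ligand CD70. They were picked by symbol, with earlier results of these libraries known, from the 13479 gene entries of a deposited expression table, and all 10 were listed there. Because of that choice, their differences between libraries are given as a description, with no test. The values are CAGE tags, which mark the capped 5′ ends of transcripts, from EBC-1 cells, a long-established line of human squamous lung cancer. The cells had been electroporated with RAB11A siRNA 1, RAB11A siRNA 2 or a control siRNA, at 600 pmol each. The labels place the procedure at 72 h after plating, and the time of harvest was not given in the sources used here. RAB11A encodes a small GTPase that returns membrane proteins from recycling endosomes to the cell surface. Each of the 3 groups held 1 library from this single line, and none of the differences has a replicate check.

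NF-kB is a family of transcription factor dimers that resting cells hold in the cytoplasm, bound to inhibitors of the IkB kind. Cytokine and other receptors free the dimers by way of the IKK kinases, and the dimers then switch on chemokines, survival genes and several of their own inhibitors and subunits, which closes feedback loops. In the alternative pathway the kinase NIK, encoded by MAP3K14, drives the processing of NFKB2, and ubiquitin ligases of the IAP group keep that kinase low. In epithelial tumours the pathway is best known for chemokines that draw neutrophils and for protection from cell death.

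Tags per gene were deposited as CPM, and their spacing of 0.04 CPM showed that 1 tag stood for that amount in every library, of about 24999950 tags. A CAGE tag counts 1 transcript start whatever the transcript's length, so CPM levels of different genes are set side by side without a length correction. A total of 10788 genes reached a mean of 5 CPM (125 tags) over the 3 libraries, and all 10 genes were among them. Differences are log2 ratios of (CPM + 1), and each standard error and interval covers the counting of tags only. In bulk RNA, fewer cells with a transcript and less of it per cell cannot be told apart. RAB11A itself stood at 7.48 CPM with siRNA 1, at 22.7 CPM with siRNA 2 and at 135 CPM with control siRNA. Of 15 squamous markers looked up, SFN, PERP and S100A2 were the 3 with an entry, summing to 196, 186 and 197 CPM with siRNA 1, siRNA 2 and control siRNA. Within that sum SFN stood at 44, 42.04 and 33.2 CPM and PERP at 128, 120 and 141 CPM. The other squamous markers looked up, TP63, SOX2, KRT5 and KRT14 among them, had no entry. Of 8 general epithelial markers, 6 had an entry and summed to 1067, 926 and 889 CPM. Most of that sum was KRT18, at 475, 394 and 386 CPM, and KRT8, at 358, 329 and 328 CPM. KRT19 stood at 175, 152 and 109 CPM, and KRT7, lower than control with both siRNAs, at 52.2, 45.3 and 59 CPM. EPCAM, at 4.28, 3.72 and 4.2 CPM, and CLDN7, at 2.24, 2.76 and 2.04 CPM, were low in every library. COL1A1 and COL1A2, of 6 fibroblast markers, summed to 3.32, 2.60 and 2.84 CPM, and none of 4 endothelial markers had an entry. Of 10 leukocyte markers, CD68, which also marks lysosomes, was the 1 with an entry, at 21.1, 31.4 and 45.2 CPM in the same order of libraries. The part of these markers in the values below was not tested.

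The start regions are shown because CXCL5 and NFKB1, which share the letters GGGAATTTCC, differed from control in opposite directions with siRNA 1. CXCL1 and NFKBIA, which hold these letters too, lay within counting error of control with siRNA 1. With siRNA 2, NFKB1 lay within counting error as well. Each RefSeq window of 250 bases before to 50 bases after a start was searched on both strands for the NF-kB consensus of 10 letters. Windows were matched for 8 of the 10 genes (RELB and CD70 were not matched), and 7 of the 8 held a match, all but RELA. By window, 8 of the 12 windows of these genes held a match, against 5.91% of all 35116 windows in the RefSeq table. Among windows of the genes compared the share was 6.89%. As the genes were chosen for their link to NF-kB, nothing is read from these counts. CXCL5 and CXCL1 shared an unbroken run of 11 letters, matched on both strands in overlapping frames, at 91 to 81 bases before the CXCL5 start and 79 to 69 before the CXCL1 start. NFKBIA held the same 10 letters as NFKB1, GGGAATTTCC, on its opposite strand. That 10-letter site stood in 51 of the 35116 windows. BIRC3 and TNFAIP3 each held 2 matches on the opposite strand, 1 of which was the same in both, GGAAATCCCC as read along the gene. The sequences are RefSeq's (GRCh38.p14), read 5′ to 3′ along the gene and placed here by their exact match to GRCh37. Capitals mark the consensus matches. The first 3 are the 250 bases before the start, and the others are shorter stretches around the sites. NFKB2 held 4 matches at start 2 and 2 at start 3, and only the match nearest start 3 is printed.
CXCL5 (chr4:74864395-74864644, minus strand): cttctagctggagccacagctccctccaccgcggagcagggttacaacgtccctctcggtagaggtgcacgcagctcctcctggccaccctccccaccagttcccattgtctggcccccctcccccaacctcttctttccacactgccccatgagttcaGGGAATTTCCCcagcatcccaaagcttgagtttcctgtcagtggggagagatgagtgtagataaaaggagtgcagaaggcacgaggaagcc
CXCL1 (chr4:74734860-74735109, plus strand): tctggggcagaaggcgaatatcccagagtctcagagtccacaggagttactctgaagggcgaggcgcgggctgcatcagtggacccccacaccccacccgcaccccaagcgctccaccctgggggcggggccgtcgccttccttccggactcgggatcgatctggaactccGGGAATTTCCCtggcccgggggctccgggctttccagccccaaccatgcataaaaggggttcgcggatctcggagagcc
BIRC3 (chr11:102187965-102188214, plus strand): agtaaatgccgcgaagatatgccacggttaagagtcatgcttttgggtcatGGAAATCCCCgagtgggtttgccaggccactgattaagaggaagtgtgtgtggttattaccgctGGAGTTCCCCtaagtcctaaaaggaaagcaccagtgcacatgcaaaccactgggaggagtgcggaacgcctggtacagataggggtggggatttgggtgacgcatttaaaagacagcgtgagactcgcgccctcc
NFKBIA (chr14:35874007-35874056, minus strand): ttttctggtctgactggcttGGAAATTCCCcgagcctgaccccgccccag
NFKB1 (chr4:103422447-103422496, plus strand): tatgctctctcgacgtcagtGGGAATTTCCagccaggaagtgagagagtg
TNFAIP3 (chr6:138188309-138188370, plus strand): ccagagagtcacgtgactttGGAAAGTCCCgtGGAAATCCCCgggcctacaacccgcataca
NFKB2, start 3 (chr10:104155421-104155461, plus strand): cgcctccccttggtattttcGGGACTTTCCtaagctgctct

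**Figure D1:**
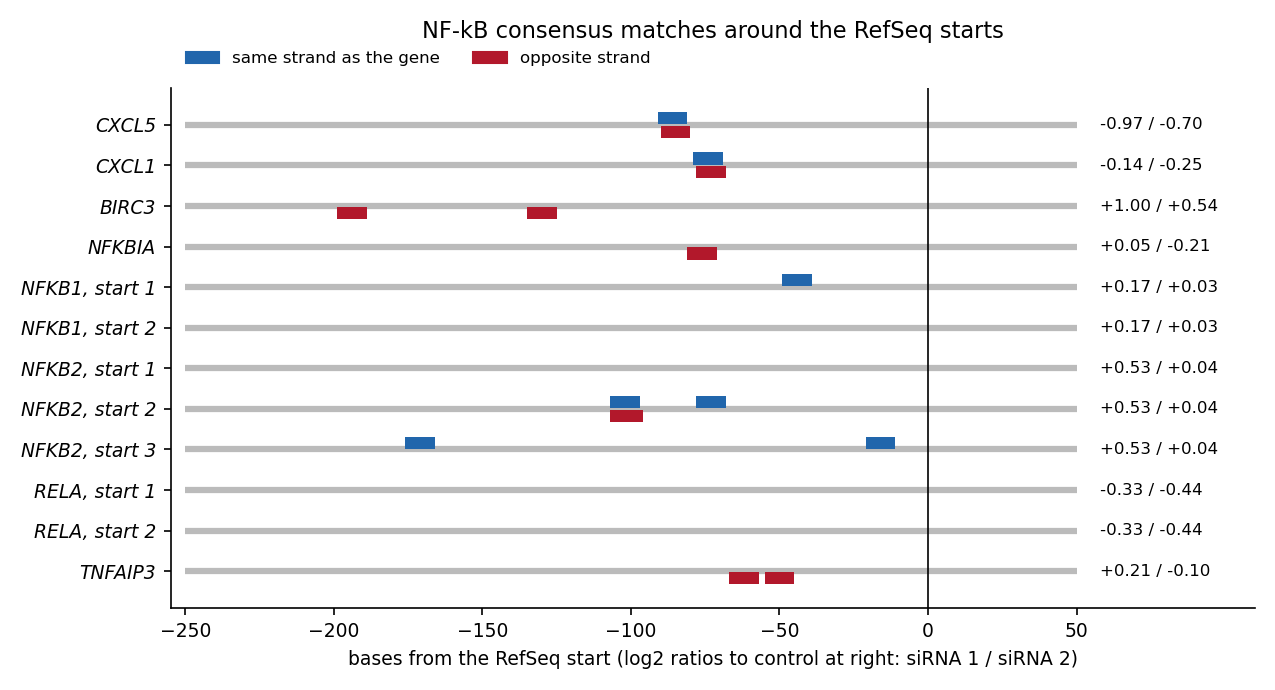
Matches to the NF-kB consensus within 250 bases before and 50 bases after each RefSeq start of 8 genes, in bases from the start (0 on the axis). Blue blocks lie on the gene's strand and red blocks on the opposite strand, and the numbers at the right are log2 ratios of (CPM + 1), siRNA 1 and then siRNA 2 over control siRNA. CXCL5 and CXCL1 have the same doubled block, with ratios of -0.97 and -0.14 for siRNA 1.

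CXCL5 was the gene with the lowest ratio of the 10 in both comparisons with control. It encodes a chemokine that attracts neutrophils through the receptor CXCR2, and lies on chromosome 4 (ENSG00000163735, chr4:74861359-74864394, minus strand, GRCh37, 1 annotated start). It stood at 44.6 CPM with siRNA 1 (1116 tags, 95% Poisson interval 42.1 to 47.3), 54.2 CPM with siRNA 2 (1355 tags, 51.4 to 57.2) and 88.5 CPM with control siRNA (2212 tags, 84.8 to 92.2). The 3 intervals do not overlap, and the control library is the highest. The log2 ratio was -0.97 with siRNA 1 (counting standard error 0.052) and -0.70 with siRNA 2 (0.049). On the ratio of CPM, 0.505 of the control level was seen with siRNA 1 (counting interval 0.469 to 0.542 at 95%, exact). With siRNA 2 it was 0.613 (0.572 to 0.656). Of the 10788 genes, 0.556% had a lower ratio than CXCL5 with siRNA 1 and 1.08% with siRNA 2.

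CXCL1, which acts through the same receptor and shares the 11-letter site, was the least abundant of the 10 genes (ENSG00000163739, chr4:74735110-74737025, plus strand). It stood at 5.48 CPM with siRNA 1 (137 tags), 5.00 CPM with siRNA 2 (125 tags) and 6.16 CPM with control siRNA (154 tags). The intervals of all 3 libraries overlap, with log2 ratios of -0.14 (counting standard error 0.144) and -0.25 (0.147). At this depth a difference was not detectable: the interval of the CPM ratio ran from 0.701 to 1.13 with siRNA 1 and from 0.636 to 1.03 with siRNA 2. CXCL2 and CXCL3, neighbours of both genes within 229.8 kb of chromosome 4, give the local context. CXCL2 stood at 17.3 CPM with siRNA 1, 15.1 with siRNA 2 and 25.2 with control siRNA, with ratios of -0.52 and -0.70. CXCL3 stood at 4.72, 4.64 and 6.72 CPM in the same order, with ratios of -0.43 and -0.45. For CXCL2 and for CXCL3 the interval of the CPM ratio to control stayed below 1 with both siRNAs.

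The 4 neighbouring chemokine genes summed to 72.2 CPM with siRNA 1, 79.0 with siRNA 2 and 126.6 with control siRNA. CXCL5 made up 61.9% of that sum with siRNA 1 (95% Clopper-Pearson interval 59.6% to 64.1%), 68.6% with siRNA 2 (66.5% to 70.7%) and 69.9% with control siRNA (68.3% to 71.5%). Its share was thus lower with siRNA 1 than in the other libraries, by more than counting error. Of 17 symbols on a chemokine list, 7 had an entry and 5 reached a mean of 5 CPM. All 5 had ratios below 0 with both siRNAs, also under TMM and median-ratio scaling, and for 4 of them the counting interval stayed below 1 with each siRNA, CXCL1 being the exception. Over all genes compared, the interval stayed below 1 for 31.7% with siRNA 1 and 33.0% with siRNA 2, and stayed above 1 for 25.2% and 20.5%. The list median was -0.43 with siRNA 1 and -0.55 with siRNA 2, against -0.03 and -0.04 over all genes. The fifth gene, CCL28, a mucosal chemokine, stood at 14.3, 12.2 and 18.4 CPM with siRNA 1, siRNA 2 and control siRNA. Below the minimum were CX3CL1, at 1.36, 1.04 and 3.20 CPM, and CXCL16, at 6.84, 3.44 and 3.04 CPM in the same order. Both were named after their values were seen. CXCL16 went the other way with siRNA 1, with a CPM ratio to control of 2.25 (counting interval 1.71 to 2.99). CX3CL1 had 0.425 (0.276 to 0.642). The shared direction of the chemokines thus holds at the 5 CPM minimum and not with lower minimums.

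**Figure D2:**
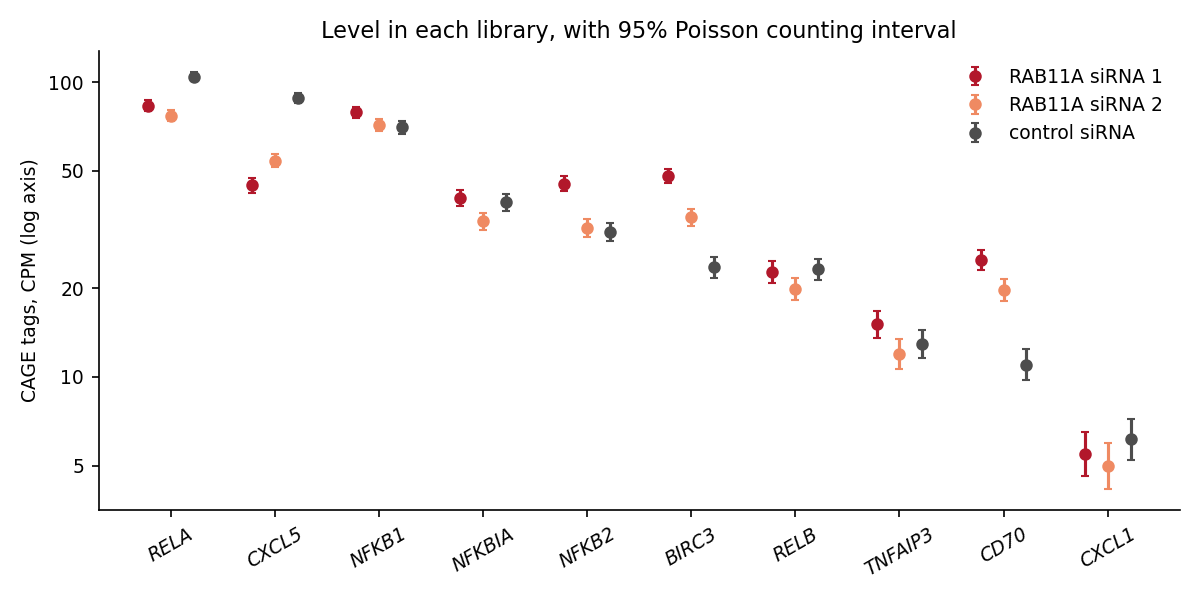
Level of each of the 10 genes in each library in CPM (log axis), with the 95% Poisson counting interval, ordered by the control library. CXCL5 stands lower in both siRNA libraries (44.6 and 54.2 against 88.5 CPM), BIRC3 and CD70 stand higher, and the other genes lie closer together.

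Among the subunits, RELA was lower with both siRNAs and NFKB2 was higher with siRNA 1. RELA encodes the chief transactivating partner of the canonical dimer (ENSG00000173039, chr11:65421070-65430561, minus strand). It stood at 83.1 CPM with siRNA 1 (2078 tags), 77.0 CPM with siRNA 2 (1925 tags) and 105 CPM with control siRNA (2613 tags). The control interval, 100.6 to 108.6 CPM, lies above both others, which overlap each other. The log2 ratios were -0.33 (counting standard error 0.042) and -0.44 (0.043).

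NFKB2 encodes the precursor protein that NIK signalling processes in the alternative pathway (ENSG00000077150, chr10:104153867-104162281, plus strand). It stood at 45.2 CPM with siRNA 1 (1131 tags), 32.0 CPM with siRNA 2 (800 tags) and 31.0 CPM with control siRNA (775 tags). The siRNA 1 library stands apart, and the intervals of the other two overlap. The ratio to control was 0.53 with siRNA 1 (counting standard error 0.065) and 0.04 with siRNA 2 (0.070).

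NFKB1 encodes the precursor of the canonical DNA-binding partner of RELA (ENSG00000109320, chr4:103422487-103538459, plus strand). It stood at 79.1 CPM with siRNA 1 (1978 tags), 71.6 CPM with siRNA 2 (1790 tags) and 70.2 CPM with control siRNA (1755 tags), with ratios of 0.17 and 0.03. The siRNA 1 interval starts at 75.7 CPM, above the upper end of the others. RELB, the usual partner of processed NFKB2 (ENSG00000104856, chr19:45504719-45541450, plus strand), stood at 22.7, 19.9 and 23.2 CPM with siRNA 1, siRNA 2 and control siRNA. Its ratios were -0.03 with siRNA 1 and -0.21 with siRNA 2, where the interval of the CPM ratio ran from 0.759 to 0.968. The fifth subunit gene, REL, not one of the 10, stood at 7.96, 8.60 and 9.20 CPM in the same order, within counting error of control in both comparisons.

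Summed over the 5 subunit genes, the level was 238.2 CPM with siRNA 1, 209.1 CPM with siRNA 2 and 238.1 CPM with control siRNA, so the siRNA 1 sum was almost that of control while its make-up differed. RELA made up 34.9% of the sum with siRNA 1 (95% Clopper-Pearson interval 33.7% to 36.1%), 36.8% with siRNA 2 (35.5% to 38.2%) and 43.9% with control siRNA (42.6% to 45.2%). NFKB2 made up 19.0% with siRNA 1 (18.0% to 20.02%), 15.3% with siRNA 2 (14.3% to 16.3%) and 13.0% with control siRNA (12.2% to 13.9%). NFKB1 made up 33.2%, 34.2% and 29.5% in the same order. RELB stayed between 9.51% and 9.74% of the sum in all 3 libraries.

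**Figure D3:**
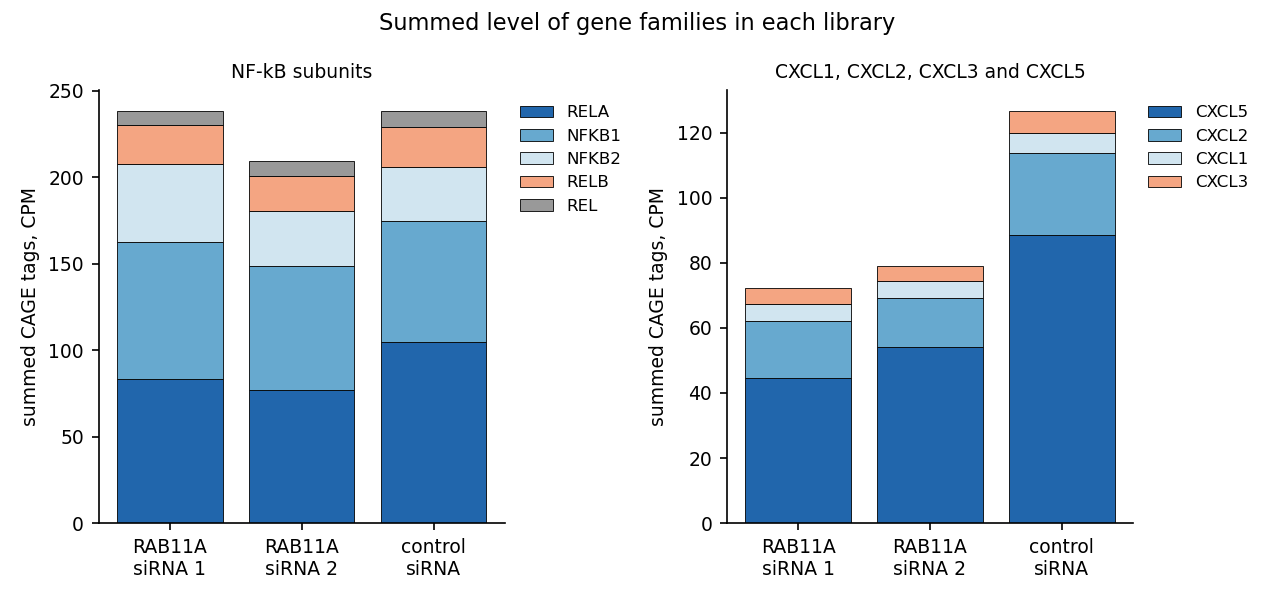
Summed CPM of the 5 NF-kB subunit genes (left) and of 4 neighbouring chemokine genes (right), 1 bar per library, with siRNA 1, siRNA 2 and control siRNA from left to right and the genes stacked. The subunit sum is 238.2, 209.1 and 238.1 CPM, with a smaller RELA part in both siRNA libraries, and the chemokine sum is 72.2, 79.0 and 126.6 CPM.

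Of the inhibitors, neither NFKBIA nor TNFAIP3 differed from control beyond counting error in both siRNA libraries. NFKBIA encodes the IkB protein that the dimers themselves induce most directly (ENSG00000100906, chr14:35870285-35873955, minus strand). It stood at 40.4 CPM with siRNA 1 (1010 tags), 33.7 CPM with siRNA 2 (843 tags) and 39.1 CPM with control siRNA (977 tags). Its ratio was 0.05 with siRNA 1 (counting standard error 0.063), within counting error, and -0.21 with siRNA 2 (0.066), where the interval of the CPM ratio was 0.786 to 0.947. TNFAIP3 encodes a ubiquitin-editing enzyme that shuts off signalling from TNF receptors (ENSG00000118503, chr6:138188351-138204451, plus strand). It stood at 15.1 CPM with siRNA 1 (377 tags), 11.96 CPM with siRNA 2 (299 tags) and 12.9 CPM with control siRNA (323 tags). The ratios were 0.21 (counting standard error 0.102) and -0.10 (0.107). With siRNA 1 the interval of the CPM ratio, 1.003 to 1.36, just excluded 1.

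Lists of related inhibitors went both ways, and their counts include the genes just described. NFKBIA is on both lists, and TNFAIP3 is on that of feedback inhibitors. Of 5 IkB family genes compared, 1 lay above and 2 below control beyond counting error with siRNA 1, and 1 above and 4 below with siRNA 2. Over all genes, 25.2% lay above and 31.7% below with siRNA 1, and 20.5% and 33.0% with siRNA 2. The 1 above with each siRNA was NFKBIE, a further cytoplasmic IkB protein, at 47.2, 40.8 and 36.1 CPM with siRNA 1, siRNA 2 and control siRNA. NFKBIZ, a nuclear IkB protein that acts as a coactivator, stood at 28.5, 25.8 and 36.3 CPM. The family's median ratio was -0.17 with siRNA 1 and -0.25 with siRNA 2, against -0.03 and -0.04 over all genes. Among 10 feedback inhibitors compared, 3 lay above and 2 below control beyond counting error with siRNA 1, and 1 above and 6 below with siRNA 2. The shares over all genes were 25.2% above and 31.7% below with siRNA 1, near the counts of these inhibitors, and 20.5% above and 33.0% below with siRNA 2. The deubiquitinase gene CYLD stood at 91.0, 92.8 and 78.8 CPM and OTUD7B, another deubiquitinase gene, at 18.1, 20.6 and 26.3 CPM, in the same order.

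BIRC3 was higher with both siRNAs, and more so with siRNA 1. It encodes an IAP ubiquitin ligase that acts on RIPK1 and NIK (ENSG00000023445, chr11:102188215-102210134, plus strand). It stood at 48.1 CPM with siRNA 1 (1203 tags, 95% Poisson interval 45.4 to 50.9), 34.8 CPM with siRNA 2 (869 tags, 32.5 to 37.2) and 23.5 CPM with control siRNA (588 tags, 21.7 to 25.5). The 3 intervals do not overlap, in the reverse of the order seen for CXCL5. The log2 ratio was 1.00 with siRNA 1 (counting standard error 0.070) and 0.54 with siRNA 2 (0.074). On the ratio of CPM it was 2.05-fold with siRNA 1 (counting interval 1.85 to 2.26) and, with siRNA 2, 1.48-fold (1.33 to 1.64). Of all genes compared, 0.352% had a higher ratio with siRNA 1 and 1.53% with siRNA 2.

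BIRC2, the paralog of BIRC3 next to it in a stretch of 61.2 kb, stood at 73.6, 66.8 and 65.6 CPM with siRNA 1, siRNA 2 and control siRNA, with ratios of 0.16 and 0.02. For BIRC2 the interval of the CPM ratio with siRNA 1, 1.05 to 1.20, excluded 1. XIAP, another IAP gene, stood at 69.0, 75.1 and 71.0 CPM, within counting error of control with both. BIRC5, a further IAP gene, stood at 204, 157 and 147 CPM, above control beyond counting error with both. Control cells thus held fewer BIRC3 than BIRC2 tags, as did both siRNA libraries. Of 11 IAP and survival genes compared, BIRC3 among them, 6 lay above and 3 below control beyond counting error with siRNA 1. With siRNA 2, 4 lay above and 3 below. All genes compared had 25.2% above and 31.7% below with siRNA 1, and 20.5% and 33.0% with siRNA 2. CFLAR, which blocks caspase activation at death receptors, stood at 86.8, 71.2 and 63.8 CPM. IER3, an immediate early gene, was lower, at 60.7, 65.6 and 96.4 CPM, with ratios of -0.66 and -0.55.

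Upstream of the dimers, 2 of the 27 IKK and adaptor genes compared were at least 2-fold apart in a comparison. RBCK1 was lower with siRNA 1 than control, where 0.519% of all genes compared were 2-fold lower. MAP3K14 was higher with siRNA 1 than siRNA 2, where 0.167% of all genes compared were 2-fold higher. RBCK1, a subunit of the linear ubiquitin ligase that recruits IKK, stood at 75.6 CPM with siRNA 1, 99.2 with siRNA 2 and 156 with control siRNA, with ratios of -1.03 (counting standard error 0.040) and -0.65. Its partners in that ligase lay closer to control: RNF31 had ratios of -0.32 and -0.30, and SHARPIN of -0.23 and -0.13. For both partners the interval of the CPM ratio to control still stayed below 1 with both siRNAs. The naming rule did not select SHARPIN, CXCL3, REL, BIRC2, XIAP, RIPK2, TNFRSF1B, TNFRSF12A, IL32 or PTX3, whose values were known when they were named. MAP3K14, the gene of NIK, stood at 45.9 CPM with siRNA 1, 22.2 with siRNA 2 and 25.7 with control siRNA, with ratios of 0.81 and -0.20 to control and 1.02 between siRNA 1 and siRNA 2. Its pattern put the siRNA 1 library alone on the high side, as for NFKB2. Of 27 IKK and adaptor genes compared, 6 lay above and 12 below control beyond counting error with siRNA 1, and 2 above and 11 below with siRNA 2, with medians of -0.05 and -0.12. Beside them, 25.2% of all genes lay above and 31.7% below with siRNA 1, and 20.5% and 33.0% with siRNA 2, with medians of -0.03 and -0.04.

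Of 11 genes compared on a receptor list, 1 lay above and 5 below control beyond counting error with each siRNA. The list medians were -0.13 and -0.23, and the list includes the kinase gene RIPK2. The gene above was TNFRSF1B with siRNA 1, at 9.2, 5.24 and 6.44 CPM with siRNA 1, siRNA 2 and control siRNA. With siRNA 2 it was TNFRSF12A, at 520, 559 and 509 CPM in the same order. Genes as a whole also lay below control more often than above, 31.7% against 25.2% with siRNA 1 and 33.0% against 20.5% with siRNA 2, with medians of -0.03 and -0.04. TNFRSF1A, the main TNF receptor of most cells, stood at 132, 125 and 165 CPM with siRNA 1, siRNA 2 and control siRNA, and LTBR, a receptor that feeds the alternative pathway, at 80.9, 83.2 and 107. IL1RAP, the coreceptor for interleukin 1, stood at 15.5, 14.0 and 23.3 CPM, with ratios of -0.56 and -0.70.

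CD70 had the highest ratio of the 10 genes in both comparisons with control. It encodes the ligand of CD27, a costimulatory receptor of lymphocytes, and is a surface protein of activated lymphocytes that some carcinomas also make (ENSG00000125726, chr19:6583194-6604114, minus strand). It stood at 24.9 CPM with siRNA 1 (622 tags, 95% Poisson interval 23.0 to 26.9), 19.7 CPM with siRNA 2 (493 tags, 18.0 to 21.5) and 11.0 CPM with control siRNA (275 tags, 9.74 to 12.4). The intervals are separate, with siRNA 1 the highest and control the lowest. The log2 ratio was 1.11 with siRNA 1 (counting standard error 0.097) and 0.79 with siRNA 2 (0.101), or 2.26-fold (counting interval 1.959 to 2.62) and 1.79-fold (1.54 to 2.09) on the ratio of CPM. Of all genes compared, 0.241% had a higher ratio with siRNA 1 and 0.389% with siRNA 2. Among the leukocyte markers looked up, CD68 alone had an entry.

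Among other ligands of the TNF family, TNFSF4 stood at 36.6, 27.3 and 26.4 CPM with siRNA 1, siRNA 2 and control siRNA, with ratios of 0.46 and 0.05. TNFSF9, a T cell costimulator like CD70, stood at 43.0, 44.7 and 43.5 CPM, within counting error of control with both siRNAs. TNFSF12, a ligand of the receptor TNFRSF12A, stood at 15.0, 16.7 and 18.6 CPM. These were the 3 others of the family, of 15 symbols looked up, that reached the 5 CPM minimum.

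**Figure D4:**
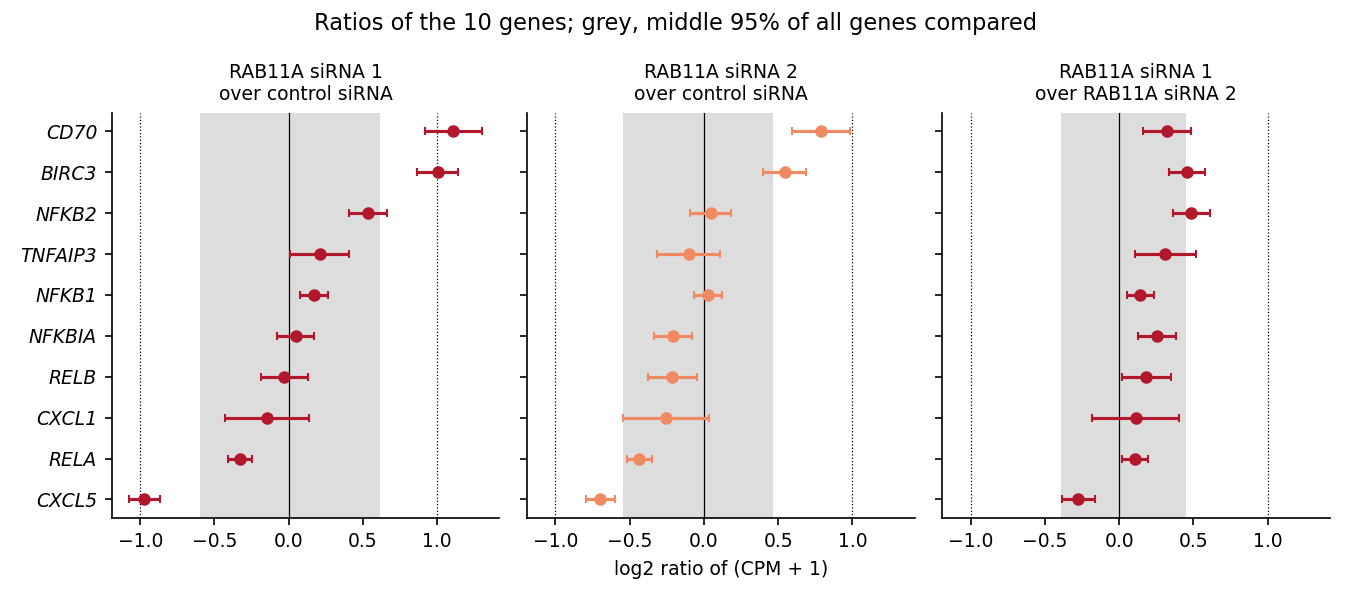
Log2 ratios of (CPM + 1) of the 10 genes for siRNA 1 over control siRNA, siRNA 2 over control siRNA, and siRNA 1 over siRNA 2, with 95% bars from the counting standard error. The grey band holds the middle 95% of the 10788 genes compared, and dotted lines mark 2-fold. CD70 and CXCL5 lie outside the band at opposite ends of the first pair of panels, with BIRC3 beside CD70.

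Counted together, 2 of the 10 genes, BIRC3 and CD70, were at least 2-fold higher with siRNA 1 than control and 0 at least 2-fold lower, where 0.371% of all genes compared were higher and 0.519% lower. With siRNA 2, 0 of 10 were 2-fold from control in either direction, against 0.195% of genes higher and 0.269% lower. By the counting interval of the CPM ratio, 5 of 10 were higher and 2 lower with siRNA 1, where 25.2% of all genes were higher and 31.7% lower. With siRNA 2, 2 were higher and 4 lower, where 20.5% of genes were higher and 33.0% lower. Since the genes were picked with these contrasts known, nothing is read from the counts. Under TMM scaling 26.4% of genes were higher and 26.1% lower with siRNA 2, and the same 2 and 4 members were counted. Both comparisons use the same control library. The median ratio of the 10 genes was 0.11 with siRNA 1 and -0.16 with siRNA 2, against -0.03 and -0.04 over all genes. The median hides opposite ends, from -0.97 for CXCL5 to 1.11 for CD70 with siRNA 1.

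A direct comparison of the siRNAs leaves the control library out. Between siRNA 1 and siRNA 2, 0 of the 10 genes were 2-fold apart in either direction, against 0.167% of all genes higher and 0.185% lower with siRNA 1. By the counting interval 8 of 10 were higher with siRNA 1 and 1, CXCL5, was lower, where 25.8% of genes were higher and 18.4% lower. Under TMM scaling 6 of 10 were higher, RELA and RELB no longer being counted, where 21.9% of genes were higher and 21.7% lower. NFKB2 had the highest ratio of siRNA 1 to siRNA 2, 0.49 (counting standard error 0.065), above 98.3% of all genes. BIRC3 had 0.46 (0.063), CD70 0.32 (0.083), TNFAIP3 0.31 (0.104) and NFKBIA 0.25 (0.066). CXCL5 had -0.27 (0.057), and CXCL1 lay within counting error, at 0.11 (0.150).

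The order of levels differed between libraries. With control siRNA it ran RELA, CXCL5, NFKB1, NFKBIA, NFKB2, BIRC3, RELB, TNFAIP3, CD70 and CXCL1, and the counting intervals of neighbours overlapped between BIRC3 and RELB and between TNFAIP3 and CD70. With siRNA 1, BIRC3 was the third, followed by NFKB2, CXCL5 and NFKBIA, each overlapping the next, and CD70 overlapped RELB above TNFAIP3. With siRNA 2, CXCL5 was the third, apart from its neighbours, and BIRC3, NFKBIA and NFKB2 overlapped in turn.

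Other known NF-kB targets lay on both sides of control. Of 17 compared, 8 lay above and 4 below control beyond counting error with siRNA 1, and 5 above and 8 below with siRNA 2, with medians of 0.20 and -0.07. The shares of all genes were 25.2% above and 31.7% below with siRNA 1, and 20.5% above and 33.0% below with siRNA 2, with medians of -0.03 and -0.04. CD44, a hyaluronan receptor, stood at 111, 107 and 78.7 CPM with siRNA 1, siRNA 2 and control siRNA, and PLAU, the urokinase gene, at 83.4, 99.3 and 70.4. CD83, an activation marker of dendritic cells, stood at 22.4, 17.6 and 15.2 CPM. IRF1, an interferon-regulated transcription factor, was lower, at 14.2, 10.7 and 17.6 CPM. IL32 and PTX3 lay above control with siRNA 1 and below it with siRNA 2: IL32 stood at 164, 102 and 122 CPM, and PTX3 at 44.3, 28.2 and 34.5 CPM. The 6 targets with an entry below the minimum mean were named after their values were seen. With siRNA 1 the counting interval of the CPM ratio to control stayed above 1 for C3, a complement gene, at 1.88, 0.52 and 0.52 CPM (47, 13 and 13 tags) with siRNA 1, siRNA 2 and control siRNA. It stayed below 1 with both siRNAs for LCN2, which encodes a siderophore-binding protein, at 0.52, 1.04 and 4.08 CPM (13, 26 and 102 tags), and for PTGS2, a prostaglandin synthase gene, at 0.44, 0.52 and 1.16 CPM (11, 13 and 29 tags). It also stayed below 1 with siRNA 1 for IL1B, at 2.24, 4.32 and 3.36 CPM, and with siRNA 2 for TNFAIP2, at 3.20, 2.40 and 3.48 CPM. For CSF2, at 0.72, 0.64 and 0.52 CPM, it included 1 with both. Over all lists, 106 of 142 symbols had an entry and 92 were compared, among them the 10 genes.

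**Figure D5:**
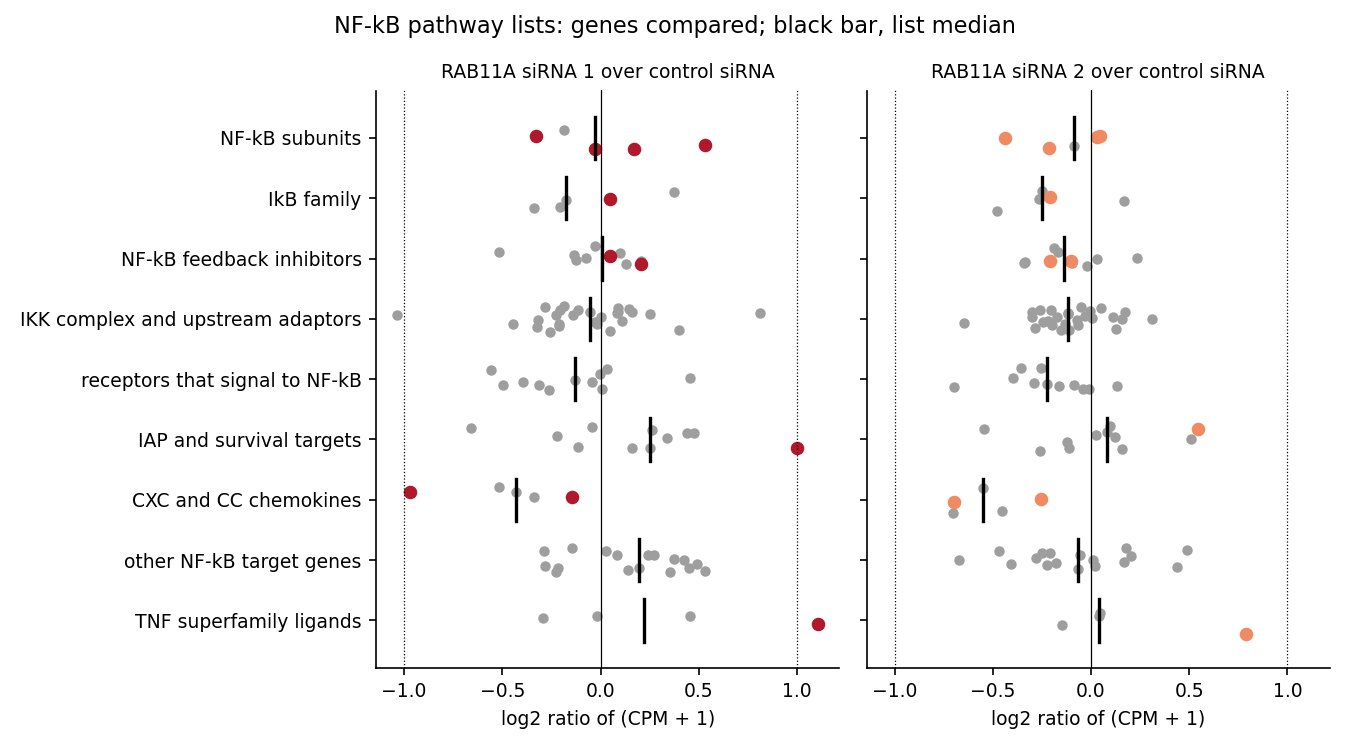
Log2 ratios of (CPM + 1) to control for the genes of 9 NF-kB pathway lists, siRNA 1 at left and siRNA 2 at right. Each dot is a gene at or above the 5 CPM minimum, coloured dots are the 10 genes described here, black bars are list medians and dotted lines mark 2-fold. Every chemokine dot lies left of 0, while the lists of subunits and other targets fall on both sides.

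CXCL5, CXCL1, NFKBIA and NFKB1 all held the letters GGGAATTTCC on either strand, and their ratios with siRNA 1 were -0.97, -0.14, 0.05 and 0.17. BIRC3 and TNFAIP3 shared GGAAATCCCC, with ratios of 1.00 and 0.21. Across the whole table, 691 compared genes had a window with the consensus, with a median ratio of -0.02 with siRNA 1 and -0.05 with siRNA 2. The 6914 with a window but no match had medians of -0.03 and -0.05. Ratios above 0 were found for 47.2% of genes with the consensus and 44.2% without it for siRNA 1, and for 41.2% and 39.8% for siRNA 2. With siRNA 1, 5 of the 691 genes were 2-fold higher and 4 lower, and of the 6914 genes 11 were higher and 29 lower. With siRNA 2, 1 of the 691 was higher and 1 lower, and of the 6914, 7 were higher and 15 lower. These differences were not tested. A match describes letters only and says nothing of binding in these cells.

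For the 3 genes with the largest mean ratio, the closest patterns were sought among genes averaging 20 CPM or more, by the distance between their pairs of log2 ratios to control over 3 libraries. The 3 closest to CXCL5, of 6930, were FBLIM1 (distance 0.015), GFPT1 (0.061) and RBCK1 (0.081). The closest to BIRC3 were CENPW (0.040), TM4SF1 (0.076) and TGM2 (0.130), and to CD70 they were KRTAP2-3 (0.095), SERPINB7 (0.096) and ESCO2 (0.098). Within a distance of 0.1 lay 6 genes for CXCL5, 2 for BIRC3 and 3 for CD70.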

How the data were processed

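CAGE libraries of EBC-1 cells, 1 each for RAB11A siRNA 1, RAB11A siRNA 2 and control siRNA, were deposited as 1 table of CPM per gene and strand. The submitters' processing notes name hg19, BWA and HISAT2, with no roles or versions, and the counting tool was not given in the sources used here. Deposited CPM values were whole tags for 100% of values (tolerance 0.005 CPM). Tags summed over genes came to 25204585, 25137457 and 25174787, slightly above the library total of 24999950, which was the same in every library. How these totals arose was not given in the sources used here. All intervals take the recovered tags as raw counts.

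Ratios are log2 of (CPM + 1), for genes averaging 5 CPM or more. Intervals are Poisson for levels, Clopper-Pearson for shares and, as ratios of CPM, for pairs of libraries, all at 95% and for counting error only. Members, lists and tests were chosen with earlier results of these data known. Named genes were the members, list genes 2-fold apart, and up to 4 per list with the largest mean ratio and at least 10 CPM. The first 50 bases at each annotated start of the 10 genes (GENCODE on GRCh37, minimap2 2.31) matched no other place with 2 or fewer mismatches, and no other entry had identical values. Scripts were tested on simulated tags. Alternatives were pseudocounts, minimum means, TMM (edgeR 4.0.16, R 4.3.3), median-ratio scaling and a binomial test between tags. Python 3.11.15, numpy 2.4.6, pandas 2.3.3, scipy 1.17.1 and matplotlib 3.10.9 were used.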

Additional observations from a re-analysis of the deposited data

How the results depend on the processing

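The 30 ratios of the 10 genes kept their sign under TMM and median-ratio scaling. The other settings could not change a sign. A pseudocount only shrinks or widens a ratio, and a minimum mean leaves a gene's own ratio as it was. With a pseudocount of 5 CPM, BIRC3 at 0.90 and CD70 at 0.90 were below 2-fold with siRNA 1, as that pseudocount shrinks ratios of low genes by construction. The scalings shifted the median of all genes by less than 0.05. They were also applied to the counting intervals, a choice added after seeing the data. No paired analysis was possible because each group has 1 library, and precision is limited by tag counts, from 125 tags for CXCL1 with siRNA 2 upward. Counts over all genes depended on the settings. Here siRNA 1 over control had 40 genes 2-fold higher and 56 lower, siRNA 2 over control 21 and 29, and siRNA 1 over siRNA 2 18 and 20. At a minimum mean of 20 CPM these were 18 and 33, 8 and 13, and 6 and 5. With a pseudocount of 5 CPM, siRNA 1 had 20 higher and 30 lower and siRNA 2 had 18 lower. At a minimum of 1 CPM the lower genes were 87, 49 and 32 in the 3 comparisons, and with no filter 95, 54 and 33. An exact two-sided binomial test between the tags of 2 libraries, with Benjamini-Hochberg adjustment and no fold rule, called 2518 higher and 3143 lower, 1983 and 3230, and 2312 and 1656. It compares these libraries, not the conditions.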
